A study of Mus musculus with 17 samples.

Results

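Messenger RNA of 9 enzymes of serine synthesis and folate-bound one-carbon metabolism was followed across metastatic cell lines of a mouse breast cancer model. The genes were chosen by name, as Phgdh, Psat1, Psph, Shmt1, Shmt2, Mthfd1, Mthfd2, Mthfd1l and Mthfd2l, and each was found among the 55450 genes of the deposited expression table. Every line came from FVB/NJ females carrying the MMTV-PyMT transgene, in which the mammary tumor virus promoter drives polyoma middle T antigen in mammary epithelium. Tumor-bearing organs of 10 mice, stated to be 10 to 12 weeks old, gave single-cell suspensions that were grown for about 1 month and sorted for high EpCAM with either low or high CD44 on the cell surface. Bulk RNA-seq covered 7 groups of 2 libraries, and the 2 libraries of a group were distinct clonal isolates from different mice. With 14 libraries from 10 mice, libraries of different groups can share a mouse, and which do is not given in the sources used here. The groups were MFP (mammary fat pad primary tumor, with no CD44 status in the sample records) and the CD44low and CD44high cells derived from lung, from lymph node (LN) and from bone marrow (BM). Single-cell RNA-seq covered 1 library each of lung-derived CD44high, lung-derived CD44low and LN-derived CD44high cells. Each bulk group was therefore a pair of clones kept in culture, and p-values measure the spread between such clones.

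Serine is made from the glycolytic intermediate 3-phosphoglycerate. Phgdh oxidizes it, Psat1 adds the amino group and Psph removes the phosphate. Shmt1 in the cytosol and Shmt2 in mitochondria then split serine into glycine and a carbon unit carried by tetrahydrofolate. Inside mitochondria, Mthfd2 or Mthfd2l oxidizes that unit and Mthfd1l releases it as formate, which Mthfd1 in the cytosol loads back onto folate for purine, thymidylate and methionine synthesis. PHGDH is amplified in a subset of human breast cancers, and Mthfd2 is known as an enzyme that is abundant in embryos and tumors and scarce in most adult tissues. The DMEM in which cells were grown supplies both serine and glycine.

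All 9 genes are annotated as protein coding in GENCODE vM21 (GRCm38, the mm10 genome), and their gene bodies share no chromosome except for 2 pairs. Phgdh lies at chr3:98313170-98339990, Psat1 at chr19:15904678-15947337 and Psph at chr5:129765558-129787449, all on the minus strand. Shmt1 (chr11:60788104-60811718) and Shmt2 (chr10:127517123-127522444) are also on the minus strand. Mthfd1 (chr12:76255298-76319803), Mthfd1l (chr10:3973118-4167081) and Mthfd2l (chr5:90931117-91021368) are on the plus strand and Mthfd2 (chr6:83305691-83325908) on the minus strand. Exons of 4 members overlap those of a gene on the opposite strand, by 452 bases for Psph with Cct6a, 184 bases for Shmt1 with Smcr8, 37 bases for Mthfd1 with Gm47525 and 32 bases for Shmt2 with Ndufa4l2. The bulk protocol is not stated to keep strand, so reads in those stretches cannot be assigned to 1 gene. Phgdh also has an annotated processed pseudogene, Phgdh-ps1, with which it may share reads.

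The 250 bases before the RefSeq start sites (GRCm38.p6) of the 4 genes whose ratios and differences are described most fully are printed 5′ to 3′ to show where 2 common promoter motifs lie in them. Capitals mark matches to the CCAAT box and to the GC box, spelled GGGCGG, on either strand, and runs in which 2 matches overlap are capitalized throughout.
Shmt1, chr11:60811266-60811515, minus strand: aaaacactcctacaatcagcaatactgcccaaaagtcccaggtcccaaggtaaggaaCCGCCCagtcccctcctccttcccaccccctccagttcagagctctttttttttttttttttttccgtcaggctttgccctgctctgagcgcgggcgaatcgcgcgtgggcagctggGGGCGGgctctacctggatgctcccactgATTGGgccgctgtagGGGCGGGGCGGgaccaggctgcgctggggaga
Shmt2, chr10:127522445-127522694, minus strand: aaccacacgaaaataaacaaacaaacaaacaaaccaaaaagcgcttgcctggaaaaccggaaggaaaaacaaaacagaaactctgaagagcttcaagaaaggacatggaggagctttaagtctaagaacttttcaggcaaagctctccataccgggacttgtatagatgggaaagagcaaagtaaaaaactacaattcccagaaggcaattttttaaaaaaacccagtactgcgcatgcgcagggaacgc
Mthfd1l, chr10:3972825-3973074, plus strand: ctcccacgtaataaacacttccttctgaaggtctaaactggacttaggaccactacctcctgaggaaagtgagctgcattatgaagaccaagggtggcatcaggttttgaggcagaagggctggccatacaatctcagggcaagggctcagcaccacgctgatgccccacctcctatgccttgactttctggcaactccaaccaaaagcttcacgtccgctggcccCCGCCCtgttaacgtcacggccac
Mthfd2, chr6:83317605-83317854, minus strand: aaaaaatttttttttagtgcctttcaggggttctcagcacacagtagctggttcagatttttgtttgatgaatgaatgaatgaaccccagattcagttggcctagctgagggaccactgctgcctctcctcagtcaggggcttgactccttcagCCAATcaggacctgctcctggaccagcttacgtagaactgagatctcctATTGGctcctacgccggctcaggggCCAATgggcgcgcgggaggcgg
Shmt1 held 4 GGGCGG matches and 1 CCAAT match, Mthfd2 held 3 CCAAT matches, Mthfd1l held 1 GGGCGG match, and Shmt2 held neither. The GC content of the same windows was 60% for Shmt1, 54.4% for Mthfd1l, 52.4% for Mthfd2 and 40.8% for Shmt2. Over the 10 windows listed for the 9 genes (Psat1 has 2), CCAAT was found in 6 and GGGCGG in 5, while 33.8% and 32.7% of all 32851 windows held them. The letters TGATGNAA, a form of the element bound by Atf4 with a C/EBP partner, were found in 0 of the 10 windows and in 3.45% of all windows. These matches describe letters in 1 window per start site and were not tied to binding.

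The labelled sort was checked before any comparison. Epcam was 315 to 941 TPM (a transcript level corrected for gene length and library total) in MFP, LN and BM libraries but 0 to 0.86 TPM in the 4 lung-derived libraries, in which Cdh1 was 0 to 0.03 TPM and the 8 epithelial markers summed to 1.74 to 87.5 TPM. The lung-derived libraries thus lack the defining marker of their own sort at the RNA level. Fibroblast markers (8 genes) summed to 4708 and 5117 TPM in lung-derived CD44low, 85.7 and 195 TPM in lung-derived CD44high, 3.51 to 19.9 TPM in LN and BM, and 0.48 and 1.27 TPM in MFP. Macrophage markers summed to at most 39.2 TPM in any library, and endothelial and lymphocyte markers to at most 0.21 TPM. Cd44 RNA did not follow the CD44 labels, with 12.2 and 21.6 TPM in lung-derived CD44low against 22 and 12.1 TPM in CD44high. In LN it ran opposite to them, with 147 and 82.7 TPM in CD44low against 49 and 52.3 TPM in CD44high (log2 difference -1.11, adjusted p = 0.423, limma), and in BM it was 43.8 and 74.9 TPM against 50.5 and 49 TPM. Genes of cycling cells (14 genes) summed to 66 to 156 TPM in lung-derived libraries, 1345 and 1900 TPM in MFP, and 856 to 6241 TPM in LN and BM. The lowest of that last range was LN-derived CD44low replicate 2, while BM-derived CD44low replicate 2 departed from its partner in other genes. The part of fibroblast-marker and cycling-gene levels in the results below was not tested, and fewer cells of a type cannot be told apart from less RNA per cell.

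**Figure D1:**
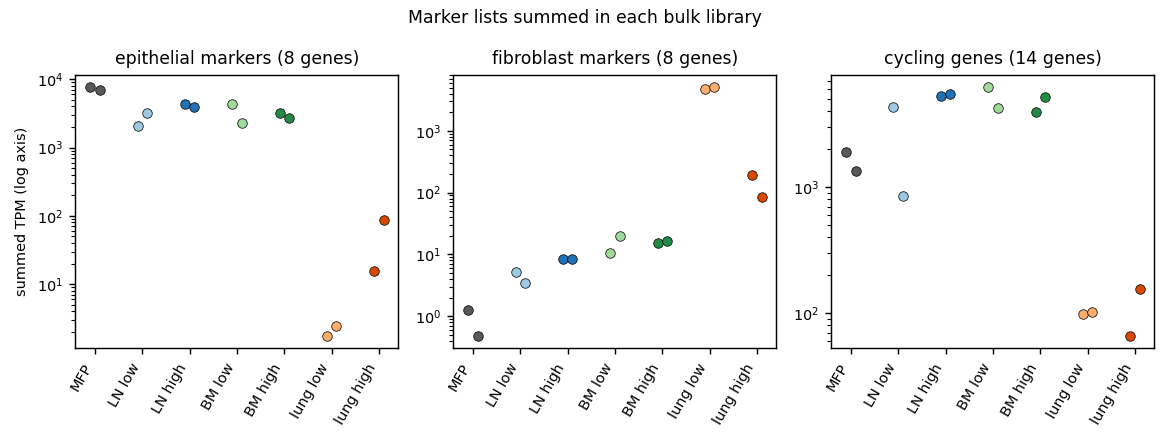
Summed TPM (log axis) of epithelial, fibroblast and cycling genes in each of the 14 bulk libraries, 1 point per library. The 4 lung-derived libraries are lowest for epithelial (1.74 to 87.5 TPM) and cycling genes (66 to 156 TPM), and the lung-derived CD44low libraries are highest for fibroblast genes (4708 and 5117 TPM).

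Differences of these enzymes between the labelled groups were described by fitting log2(TPM + 1) of 15348 genes with limma. A call means p under 0.05 after Benjamini-Hochberg adjustment across the whole table. Every lung-derived library held almost no Epcam RNA and every other library held it at a high level. Organ of origin and cell type therefore cannot be told apart in this design. All 9 enzymes passed the filter on low values (1 TPM in 2 or more libraries). Most calls among the enzymes were in lung-derived cells, in which more of all genes were called as well. Against the 8 LN and BM libraries, the mean of the lung-derived groups was lower in 5 enzymes (Phgdh, Psat1, Psph, Shmt1 and Mthfd1l) and higher in 0, where 24% of all genes were called lower and 35.9% higher. For Shmt1 and Mthfd1l every lung-derived library lay below all LN and BM libraries, while for Phgdh, Psat1 and Psph the libraries overlapped. For Psph the lower mean came from the CD44high pair, since the lung-derived CD44low libraries (101 and 98.2 TPM) lay above 7 of the 8 LN and BM libraries. The median difference of the 9 enzymes was -0.77 on the log2 scale, beside 0.20 for all genes. Against MFP, lung-derived CD44low cells were lower in 4 enzymes (23.1% of all genes) and higher in 2 (21.9%), and lung-derived CD44high cells were lower in 3 (21.2%) and higher in 0 (14.9%). The count of 3 of 9 in lung-derived CD44high cells was near the share of all genes called in those 2 directions. Median differences of the enzymes were -0.86 and -0.71, beside 0.00 and -0.04 for all genes. Within lung, CD44high cells were higher than CD44low cells in 1 enzyme (12.2%) and lower in 3 (18.5%). With the study's further limit of an absolute log2 fold change over 2, the count against LN and BM fell to 2 of 9 (Shmt1 and Mthfd1l), with 5.54% of all genes past that limit in the lower direction. Without LN-derived CD44low replicate 2 and BM-derived CD44low replicate 2, the called enzymes numbered 8 against LN and BM, 6 in lung-derived CD44high against MFP and 8 between CD44high and CD44low within lung. The share of all genes called in those fits also went up, from 59.9% to 67.3%, from 36.1% to 47% and from 30.7% to 42.1%. In the same fit lung against LN and BM gave -1.81 for Phgdh, -1.13 for Psat1, -0.82 for Psph, -3.59 for Shmt1 and -2.85 for Mthfd1l, all still called. Leaving out lung-derived CD44low replicate 1 took the count in lung-derived CD44low against MFP from 6 to 2 and the share of all genes from 45% to 32.4%. The count within lung became 2 without either lung-derived CD44low library or without lung-derived CD44high replicate 1, and 7 without either LN-derived CD44low library, each of which also took the count in lung-derived CD44high against MFP to 6. Within lung 18.6% to 20.1% of all genes were called where the count was 2 and 32.9% where it was 7, and 38.6% were called in lung-derived CD44high against MFP where it was 6.

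**Figure D2:**
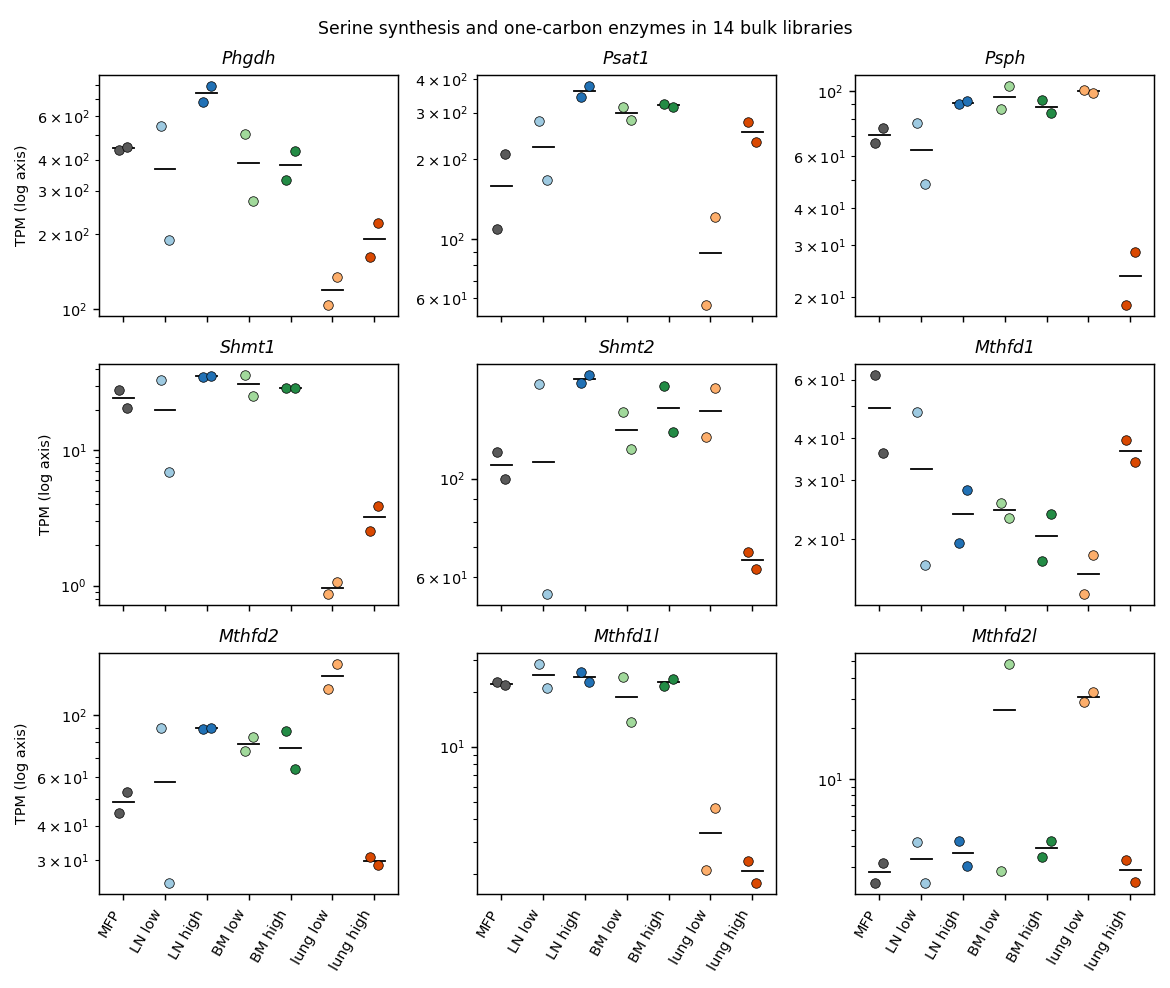
TPM (log axis, its range set for each gene) of the 9 enzymes in 14 bulk libraries, with 1 point per library and a line at the mean of each group of 2. Shmt1 and Mthfd1l are lowest in the 4 lung-derived libraries, and Psph, Shmt2 and Mthfd2 are lower in lung-derived CD44high than in lung-derived CD44low libraries.

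Of the serine synthesis enzymes, Phgdh, which catalyzes the first step, had the highest TPM of the 9 in both MFP libraries (436 and 451). It measured 104 and 135 TPM in lung-derived CD44low and 163 and 222 TPM in lung-derived CD44high libraries. In LN it was 546 and 189 TPM in CD44low and 681 and 793 TPM in CD44high cells, and in BM 506 and 271 TPM in CD44low and 330 and 434 TPM in CD44high cells. All 4 lung-derived libraries were thus below both MFP libraries, while LN-derived CD44low replicate 2 fell within the lung range. Phgdh was lower in lung-derived CD44low cells than in MFP by a log2 fold change of -1.90 (SE 0.45, adjusted p = 0.00713, limma), a call lost without lung-derived CD44low replicate 1 (adjusted p = 0.0597). For lung-derived CD44high against MFP the difference was -1.22 (SE 0.45) and missed the threshold (adjusted p = 0.0624, limma). Lung against LN and BM gave -1.50 (SE 0.28, adjusted p = 0.00109, limma).

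Psat1, the aminotransferase of the second step, was 56.4 and 121 TPM in lung-derived CD44low, 276 and 233 TPM in lung-derived CD44high and 110 and 209 TPM in MFP. LN gave 280 and 167 TPM in CD44low and 345 and 379 TPM in CD44high, and BM gave 315 and 282 TPM in CD44low and 324 and 315 TPM in CD44high. Only LN-derived CD44low replicate 2 among the LN and BM libraries lay below a MFP library. Psat1 was the 1 enzyme called higher in CD44high than in CD44low cells of the lung, by 1.60 (SE 0.39, adjusted p = 0.0127, limma). That call was lost without lung-derived CD44low replicate 1, where the difference was 1.06 (adjusted p = 0.112), and without lung-derived CD44high replicate 1 (adjusted p = 0.0772). Lung was lower than LN and BM by -1.01 (SE 0.24, adjusted p = 0.00482, limma), with the lung-derived CD44high libraries inside the range of LN and BM. Fitted on the lung-derived groups alone, the difference by CD44 had an adjusted p of 0.0892.

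Psph, the phosphatase that releases serine, separated the lung-derived groups in the other direction. It was 101 and 98.2 TPM in CD44low but 18.8 and 28.4 TPM in CD44high libraries of the lung, and 66.5 and 74.6 TPM in MFP. The LN and BM libraries lay between 48.2 TPM (LN-derived CD44low replicate 2) and 104 TPM (BM-derived CD44low replicate 2), all above the lung-derived CD44high libraries. Psph was lower in CD44high than in CD44low cells of the lung by -2.06 (SE 0.26, adjusted p = 0.000219, limma) and lower in lung-derived CD44high cells than in MFP by -1.57 (SE 0.26, adjusted p = 0.0011). Both calls were kept when any single library was left out. Lung-derived CD44low cells differed from MFP by 0.49 (SE 0.26, adjusted p = 0.15). The CD44 difference in lung was below that in LN by -2.63 (SE 0.36, adjusted p = 0.000702) and below that in BM by -1.95 (SE 0.36, adjusted p = 0.00481). Without LN- and BM-derived CD44low replicate 2 these were -2.29 and -2.09 (adjusted p = 0.00155 and 0.00242). Over all genes 10.6% were called lower in the first of these contrasts, with Psph, Shmt2 and Mthfd2 among the 9 enzymes, and 8.86% in the second, with Psph alone. The second count became 3 without either LN-derived CD44low library and 2 without BM-derived CD44low replicate 2 or lung-derived CD44low replicate 2. In either direction 17.7%, 20.4% and 11.5% of all genes were called in those fits, beside 15.3% with every library.

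Shmt1, the cytosolic serine hydroxymethyltransferase, had the largest mean difference of the 9 enzymes between lung and the LN and BM libraries on the log2 scale. The lung-derived libraries held 0.86 and 1.06 TPM (CD44low) and 2.54 and 3.88 TPM (CD44high), against 28.1 and 20.7 TPM in MFP. In LN it was 32.9 and 6.88 TPM in CD44low and 34.7 and 35.7 TPM in CD44high cells, and in BM 36.4 and 25 TPM in CD44low and 29 and 29.2 TPM in CD44high cells. No lung-derived library reached the lowest of the others, LN-derived CD44low replicate 2. Shmt1 was lower in lung-derived CD44low cells than in MFP by -3.68 (SE 0.54, adjusted p = 0.000426, limma) and in lung-derived CD44high cells by -2.60 (SE 0.54, adjusted p = 0.00438). Lung against LN and BM gave -3.26 (SE 0.33, adjusted p = 2.19e-05). The libraries with low Shmt1, LN-derived CD44low replicate 2 included, were also the 5 with the lowest sums of cycling genes, a link that was not tested.

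Shmt2, its mitochondrial counterpart, did not share that pattern. It was 124 and 160 TPM in lung-derived CD44low and 68.4 and 62.5 TPM in lung-derived CD44high libraries, beside 115 and 100 TPM in MFP. LN-derived CD44high libraries had the highest level (164 and 172 TPM), BM-derived libraries spanned 116 to 162 TPM, and the LN-derived CD44low libraries were 163 and 54.8 TPM. Shmt2 was lower in CD44high than in CD44low cells of the lung by -1.10 (SE 0.40), which missed the threshold (adjusted p = 0.0656, limma) but passed it after median-ratio scaling (adjusted p = 0.0432). The CD44 difference in lung was below that in LN by -1.92 (SE 0.57, adjusted p = 0.0418, limma), and this call was lost when any one of 10 libraries was left out (adjusted p = 0.0598 to 0.137). Without LN-derived CD44low replicate 2 the value fell to -1.14 (adjusted p = 0.0329). Lung against LN and BM gave -0.44 (SE 0.25, adjusted p = 0.15), and -0.73 (adjusted p = 0.0157) after median-ratio scaling.

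Of the mitochondrial dehydrogenases, Mthfd2 was highest in lung-derived CD44low libraries (125 and 154 TPM) and among the lowest in lung-derived CD44high libraries (30.7 and 28.7 TPM). MFP held 44.2 and 52.9 TPM, LN-derived CD44high 89.5 and 90.2 TPM, LN-derived CD44low 90 and 24.7 TPM, and BM 64 to 88.1 TPM. The lung-derived CD44low libraries exceeded all 12 others, and LN-derived CD44low replicate 2 alone was below the lung-derived CD44high pair. Within lung, Mthfd2 was lower in CD44high cells by -2.19 (SE 0.46, adjusted p = 0.00558, limma), a call lost without lung-derived CD44low replicate 2 (adjusted p = 0.0506). It was higher in lung-derived CD44low cells than in MFP by 1.50 (SE 0.46, adjusted p = 0.0233), a call lost without any one of those 4 libraries (adjusted p = 0.0659 to 0.125). The CD44 difference in lung was below that in LN by -3.10 (SE 0.65, adjusted p = 0.00851), or by -2.18 (adjusted p = 0.00171) without LN-derived CD44low replicate 2, while the difference from that in BM, -2.12 (SE 0.65), missed the threshold (adjusted p = 0.0555).

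Mthfd2l, the second mitochondrial dehydrogenase, was near 3 TPM in most libraries and stood out in 3. It was 28.6 and 32.7 TPM in lung-derived CD44low and 48.6 TPM in BM-derived CD44low replicate 2, against 2.4 to 4.3 TPM in the other 11 libraries. The other BM-derived CD44low clone, with 2.86 TPM, was within that lower range, so this group was split between its 2 clones. Mthfd2l was higher in lung-derived CD44low cells than in MFP by 3.07 (SE 0.88, adjusted p = 0.0177, limma) and lower in lung-derived CD44high than in CD44low cells by -3.03 (SE 0.88, adjusted p = 0.0271). Each call was lost when any one library of the groups compared was left out (adjusted p = 0.0616 to 0.091 and 0.0906 to 0.129). BM-derived CD44low replicate 2 enters the shared estimate of the spread in both.

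Mthfd1l, which releases mitochondrial formate, was 2.12 and 4.6 TPM in lung-derived CD44low and 2.36 and 1.78 TPM in lung-derived CD44high libraries. MFP held 22.6 and 21.8 TPM, LN-derived libraries 21 to 28.6 TPM and BM-derived libraries 13.7 (CD44low replicate 2) to 23.9 TPM, all above the lung-derived libraries. The fall was of like size in both lung-derived groups against MFP, -2.47 (SE 0.34, adjusted p = 0.000263, limma) in CD44low and -2.92 (SE 0.34, adjusted p = 0.000126) in CD44high cells, and lung against LN and BM gave -2.70 (SE 0.21, adjusted p = 3.11e-06). CD44high and CD44low cells of the lung differed by -0.45 (SE 0.34, adjusted p = 0.365).

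Mthfd1, the cytosolic enzyme that takes up formate, was 13.7 and 17.9 TPM in lung-derived CD44low and 39.5 and 33.9 TPM in lung-derived CD44high libraries, against 62.1 and 36.2 TPM in MFP. LN-derived libraries held 16.8 to 47.8 TPM and BM-derived libraries 17.2 to 25.6 TPM. Both lung-derived CD44high libraries and CD44low replicate 2 lay within the range of LN and BM, and CD44low replicate 1 lay below it. Mthfd1 was lower in lung-derived CD44low cells than in MFP by -1.54 (SE 0.44, adjusted p = 0.0176, limma), a call lost without either lung-derived CD44low replicate (adjusted p = 0.108 and 0.0517) or without MFP replicate 1 (adjusted p = 0.131). The lung-derived groups differed by 1.17 (SE 0.44, adjusted p = 0.0722), and by 1.19 (adjusted p = 0.0422) after median-ratio scaling. Against LN and BM the lung mean differed by 0.01 (SE 0.27, adjusted p = 0.989).

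**Figure D3:**
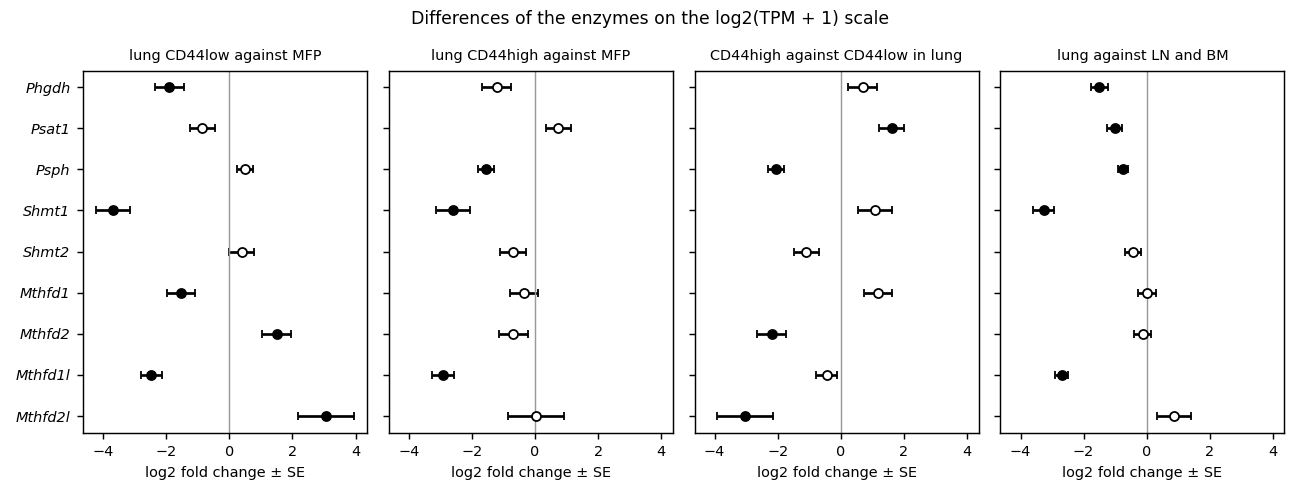
Log2 fold change on the log2(TPM + 1) scale with its standard error for the 9 enzymes in 4 comparisons, filled where limma's adjusted p was under 0.05. Shmt1 and Mthfd1l are filled on the left in 3 of the 4 panels (-2.47 to -3.68), and Psph, Mthfd2 and Mthfd2l lie left of zero between CD44high and CD44low cells of the lung (-2.06 to -3.03).

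In LN- and BM-derived cells few differences from MFP were called. LN-derived CD44high cells were higher in Psat1 (5.87% of all genes were called higher), by 1.25 (SE 0.39, adjusted p = 0.045, limma). This call was not made with replicate number as a block in the fit. The call was lost without any of 7 libraries in turn, MFP replicate 1 among them, where the difference was 0.79 (adjusted p = 0.289). In the other 3 comparisons with MFP limma called 0 of the 9, where it called 14% of all genes in either direction for LN-derived CD44low, 23.2% for BM-derived CD44low and 27% for BM-derived CD44high cells. At an unadjusted p under 0.05 the counts were 0, 1 (Psat1) and 2 (Psat1 and Mthfd1), beside 26.6%, 35% and 38.6% of all genes. Between CD44high and CD44low cells limma called 0 of 9 in LN and in BM, where 0.378% and 0.15% of all genes were called, and the unadjusted counts were 1 (Phgdh) and 0, beside 10.1% and 7.4% of all genes. Without LN-derived CD44low replicate 1, the counts became 4 in LN-derived CD44low against MFP and 3 between CD44high and CD44low cells of LN, where 17.8% and 0.88% of all genes were called. The LN-derived CD44low arm is then replicate 2 alone, the library that stood apart, and it is assumed to vary like the other groups. They became 4 in LN-derived CD44high against MFP, 2 in BM-derived CD44high and 1 in BM-derived CD44low without either LN-derived CD44low library, where 27.7%, 31% and 26.3% of all genes were called. A count of 1 was also reached in BM-derived CD44low against MFP and between CD44high and CD44low cells of BM without BM-derived CD44low replicate 1 (31.9% and 15.7% of all genes), and in BM-derived CD44high against MFP without either lung-derived CD44low library (24.4% and 24.5%) or without MFP replicate 2 (15.8%).

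These comparisons depended on how TPM was scaled. As deposited, the median of all genes was -0.30 in LN-derived CD44high and -0.34 in BM-derived CD44high cells against MFP, and 0.20 in lung against LN and BM. Dividing each library by its median ratio brought those medians to 0.02, 0.04 and -0.01. The share of calls in the higher direction over all genes went from 24.7% to 53.7% and from 31% to 59.2% in those comparisons with MFP, and from 60% to 49.6% in lung against LN and BM. It also went from 50% to 63% between CD44high and CD44low cells of LN, from 47.8% to 60.7% in BM, and from 45.7% to 35.7% for the CD44 difference in lung minus that in LN. It went from 32.1% to 48.4% in LN-derived CD44low and from 40.4% to 57.3% in BM-derived CD44low cells against MFP. On that scale Psat1 was higher than in MFP in LN-derived CD44high (1.79, adjusted p = 0.00923), BM-derived CD44high (1.64, adjusted p = 0.0117) and BM-derived CD44low cells (1.26, adjusted p = 0.0403, limma). LN-derived CD44high cells then had 4 enzymes called against MFP, beside 3 in lung-derived CD44high cells, where 16.9% and 35.7% of all genes were called on that scale. The lower means of Phgdh (-1.79), Psat1 (-1.30), Psph (-1.05, with the CD44low pair high as above), Shmt1 (-3.48) and Mthfd1l (-2.94) in lung against LN and BM were called on both scales. Mthfd1 against LN and BM was 0.01 as deposited and -0.27 after scaling, and neither value was called.

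The balance of mitochondrial and cytosolic enzymes was described by 3 ratios, which were compared between the 4 lung-derived and the 8 LN and BM libraries. TPM of Shmt2 was 145 and 151 times that of Shmt1 in lung-derived CD44low and 26.9 and 16.1 times in lung-derived CD44high libraries. The same ratio was 3.89 to 7.96 in LN and BM and 4.09 and 4.84 in MFP. The log2 ratio of TPM + 1 averaged 5.09 ± 1.29 (SD, n = 4) in lung and 2.27 ± 0.27 (SD, n = 8) in LN and BM, a difference of 2.82 (exact two-sided permutation test, p = 0.00202, adjusted over the 3 ratios 0.00303). Mthfd1l stood to Mthfd1 as 0.05 to 0.26 in lung and 0.59 to 1.32 in LN and BM, with no overlap. Its log2 ratio differed by -2.70 (-2.81 ± 0.96, n = 4, against -0.10 ± 0.44, n = 8, exact permutation p = 0.00202, adjusted 0.00303), and 0.00202 is the smallest p this design can give. MFP held 0.36 and 0.60, so that MFP replicate 1 lay between the ranges of lung and of LN and BM. These tests count each library as independent, although libraries of different groups can share a mouse. The ratios also reuse the values of Shmt1 and Mthfd1l, already called lower in lung against LN and BM, and are not added support for those calls.

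Mthfd2 to Mthfd1 split the lung-derived groups to either side of the LN and BM libraries. It was 9.11 and 8.61 in CD44low and 0.78 and 0.85 in CD44high libraries of the lung, against 1.47 to 5.13 in LN and BM and 0.71 and 1.46 in MFP. The lung mean of the log2 ratio was 1.39 ± 1.94 (SD, n = 4) and that of LN and BM 1.53 ± 0.59 (SD, n = 8), and the difference of -0.14 was smaller than either spread (exact permutation p = 0.853). Its sign turned to 0.44 without lung-derived CD44high replicate 1 and to 0.40 without replicate 2. The means of lung as 1 group therefore hide libraries that lie apart.

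**Figure D4:**
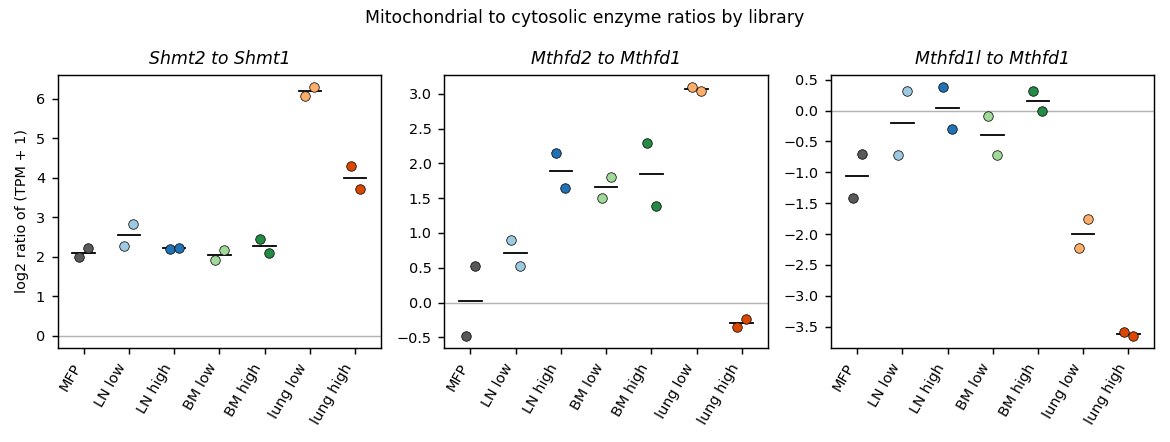
Log2 ratio of TPM + 1 for 3 pairs of a mitochondrial and a cytosolic enzyme in each bulk library, with a line at the mean of each group of 2. For Shmt2 to Shmt1 all 4 lung-derived libraries lie above the others, for Mthfd1l to Mthfd1 all 4 lie below, and for Mthfd2 to Mthfd1 the lung-derived CD44low libraries are highest.

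Over the 7 group means some of the enzymes varied together. Phgdh and Shmt1 (Pearson r = 0.939) and Shmt1 and Mthfd1l (r = 0.921) followed each other, and so did Psph and Shmt2 (r = 0.927), Shmt2 and Mthfd2 (r = 0.884) and Psph and Mthfd2 (r = 0.866). Mthfd1 ran against Mthfd2 (r = -0.837) and had no r above 0.289 with any other enzyme, and Mthfd2l had its highest r with Mthfd2 (0.764). These are descriptions over 7 points that share 14 libraries. Among 6837 genes with a mean of at least 10 TPM, those most like Shmt1 were Jpt2 (r = 0.999), Kif20a (0.995) and Pbk (0.994), and Kif20a and Pbk are genes of mitosis. Those most like Mthfd1l were Brip1os (0.995), Tuba1c (0.992) and Xrcc6 (0.991), and those like Phgdh included Cct4 (0.966) and Pih1d1 (0.964). For Psat1 they were Dcps (0.977), Hist1h1b (0.968) and Abhd2 (0.966), and for Psph they included Eps8 (0.977) and Txndc12 (0.973). Shmt2 was most like Atf1 (0.962), Skap2 (0.958) and Myd88 (0.929), and Mthfd2 most like Sec61g (0.974), Pcolce (0.969) and Shc1 (0.968). Mthfd1 was nearest to Zfp397 (0.986), Ahsa1 (0.984) and Slc10a7 (0.982), and Mthfd2l to Hnrnpll (0.994), Ubqln1 (0.992) and Sap30 (0.99).

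The neighbouring steps of the pathway were described from lists of genes. Of 9 serine and glycine transporters tested, lung-derived cells were higher in 3 and lower in 2 than LN and BM, where 35.9% of all genes were called higher and 24% lower, shares near those of the list. Slc38a1, a neutral amino acid transporter, was 0.03 and 0.4 TPM in lung-derived CD44low, 20.5 and 13.45 TPM in lung-derived CD44high and 40.1 to 94.9 TPM in LN and BM, a difference of -3.66 (SE 0.22, adjusted p = 5.83e-07, limma). The glycine transporter Slc6a9 was higher by 1.96 (SE 0.35, adjusted p = 0.000888) and the serine carrier Slc1a4 by 1.57 (SE 0.22, adjusted p = 0.000173). Slc1a5, an exchanger of glutamine and other neutral amino acids, separated the lung-derived groups, with 16.3 and 16.4 TPM in CD44low and 0.51 and 0.14 TPM in CD44high libraries (-3.73, SE 0.51, adjusted p = 0.000418).

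Genes that use or recycle the carbon units were described in the same way. Of 14 purine and thymidylate synthesis genes tested, 9 were lower and 1 higher in lung than in LN and BM, beside 24% and 35.9% of all genes, with a list median of -0.78 beside 0.20 for all genes. Thymidine kinase Tk1 was 2.11 to 5.38 TPM in lung and 46 to 190 TPM in LN and BM (-4.93, SE 0.29, adjusted p = 5.22e-07, limma). Dut (-1.95, SE 0.22) and thymidylate synthase Tyms (-1.88, SE 0.31) were also lower (adjusted p = 3.72e-05 and 0.000526). Against MFP, 9 of the 14 were lower in lung-derived CD44low and 7 in lung-derived CD44high cells, and 0 were higher in either, beside 23.1% and 21.2% of all genes called lower. Of 7 genes of folate uptake and reduction, 3 were higher and 2 lower in lung than in LN and BM, beside the same shares of all genes (35.9% and 24%). Gamma-glutamyl hydrolase Ggh was among those higher (1.60, SE 0.13, adjusted p = 4.98e-06, limma). Of 6 other folate enzymes, 2 were lower in CD44high than in CD44low cells of the lung, where 18.5% of all genes were called lower, the sarcosine dehydrogenase Sardh (-2.52, SE 0.39, adjusted p = 0.000912) and the formyltetrahydrofolate dehydrogenase Aldh1l1 (-2.37, SE 0.41, adjusted p = 0.00175).

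In single cells, counts of the 9 enzymes were summed over cells that passed a minimum of detected genes (above 250) and a mitochondrial share below 10%, and given per 10000 counts with exact 95% Poisson intervals, which cover counting error only. The 3 libraries kept 1236 cells (lung-derived CD44high, 2210623 counts, median 557 per cell), 348 cells (lung-derived CD44low, 2220759 counts, median 4011) and 2562 cells (LN-derived CD44high, 5287425 counts, median 585). The study states 2 replicates per single-cell sample, but each group has 1 matrix here. The column names mark all 3 as merged and both lung-derived ones as replicate 1, and whether a matrix pools replicates is not given in the sources used here. With 1 matrix per group there is no test. The 9 enzymes together gave 10.1 (9.82 to 10.4) per 10000 in LN-derived CD44high, 6.3 (5.97 to 6.64) in lung-derived CD44high and 5.3 (5.01 to 5.62) in lung-derived CD44low cells. Psat1 and Phgdh gave 1996 and 1354 of the 5334 counts in the LN-derived library, so the sum mostly follows these genes. Psat1 was 3.77 (3.61 to 3.94) in LN-derived CD44high, 1.13 (0.995 to 1.28) in lung-derived CD44high and 1.38 (1.23 to 1.55) in lung-derived CD44low cells. Phgdh was 2.56 (2.43 to 2.7), 2.5 (2.29 to 2.71) and 1.02 (0.889 to 1.16) in the same order. So Psat1 was lower in both lung-derived libraries than in the LN-derived one, and Phgdh in the CD44low one. Between the lung-derived libraries the intervals of Psat1 overlapped, with the lower value in CD44high, whereas in bulk RNA Psat1 was higher in CD44high cells.

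Psph was 0.431 (0.377 to 0.491) in LN-derived CD44high, 0.299 (0.231 to 0.38) in lung-derived CD44high and 0.167 (0.117 to 0.23) in lung-derived CD44low cells. The order of the lung-derived libraries was thus the reverse of that in bulk RNA. Mthfd2 was 1.01 (0.924 to 1.1), 0.398 (0.319 to 0.49) and 0.698 (0.592 to 0.817), and in lung its order by CD44 was that of bulk RNA. Between LN-derived CD44high and lung-derived CD44low cells the order of Mthfd2 was the reverse of that in bulk RNA, where lung-derived CD44low was highest. Shmt2 was 0.861 (0.783 to 0.943), 0.642 (0.541 to 0.757) and 0.824 (0.709 to 0.952).

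Shmt1, at 0.86 to 3.88 TPM in bulk lung-derived RNA, was 0.493 (0.405 to 0.595) in lung-derived CD44high and 0.194 (0.14 to 0.261) in lung-derived CD44low cells, beside 0.374 (0.324 to 0.43) in LN-derived CD44high cells. Mthfd1l was 0.195 (0.141 to 0.262), 0.392 (0.314 to 0.483) and 0.318 (0.272 to 0.37) in that order. For each gene 1 lung-derived library lay below the LN-derived library, and the other had the higher value with an interval that overlapped that of LN. In bulk RNA all lung-derived libraries were below those of LN for both genes. Shmt1 was 0.52 in lung-derived CD44high cells with at least 2 counts of cycling genes and 0.514 in those with 0. The same values were 0.246 and 0.0267 (1 count) in lung-derived CD44low and 0.37 and 0.287 in LN-derived CD44high cells. Only in lung-derived CD44low were the intervals apart, and this split was not tested. Mthfd1 spanned 0.262 to 0.297 and Mthfd2l 0.347 to 0.463, with overlapping intervals between the lung-derived libraries. Mthfd2l was 0.347 (0.274 to 0.433) in lung-derived CD44low and 0.38 (0.303 to 0.47) in lung-derived CD44high cells. In bulk RNA both lung-derived CD44low libraries were above both lung-derived CD44high libraries for Mthfd2l, a difference not seen here. The single-cell libraries also differed from the bulk in cycling genes, which summed to 37.1 per 10000 in lung-derived CD44high, 13.9 in lung-derived CD44low and 27 in LN-derived CD44high cells. The 8 epithelial markers summed to 4.27 per 10000 in lung-derived CD44high, 0.856 in lung-derived CD44low and 9.22 in LN-derived CD44high cells. Krt8 and Krt18 gave 369 and 573 of the 945 epithelial counts in lung-derived CD44high cells, where 5 of the 8 markers were at 0. Epcam had 3 and 0 counts in the lung-derived CD44high and CD44low libraries and 936 counts in the LN-derived library. Fibroblast markers were at 21.4 per 10000 in lung-derived CD44low cells against 0.267 and 0.115 in the CD44high libraries of lung and LN. For the lung-derived CD44low library, 0 Epcam counts allow a level of up to 0.0166 per 10000.

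**Figure D5:**
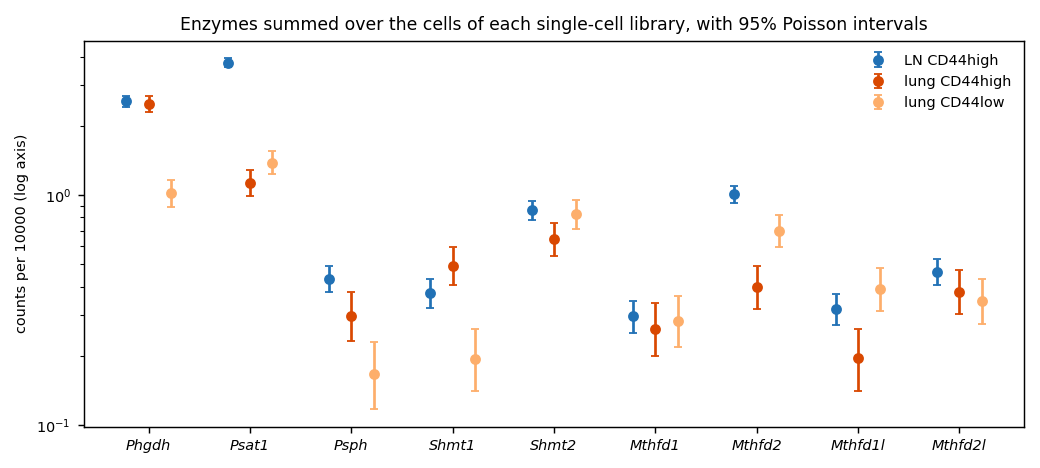
Counts per 10000 (log axis) of the 9 enzymes summed over the kept cells of each single-cell library, with 95% Poisson intervals for counting error. Psat1 is highest in LN-derived CD44high cells (3.77), and Shmt1 is lowest in lung-derived CD44low cells (0.194).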

How the data were processed

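Bulk libraries were made by SMART-seq2 and Nextera XT, and the authors aligned reads to mm10 with STAR and deposited TPM values from RSEM on a GENCODE annotation. TPM keeps no depth, and the study states a minimum of 10 M reads per library. Single-cell libraries were 3′ SureCell libraries, for which the authors deposited counts per gene and cell made with kallisto. Versions of these tools are not given in the sources used here. The 9 members and the gene lists were chosen with earlier results of these data known.

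Genes reaching 1 TPM in 2 or more libraries (15348 of 55450) were fitted as log2(TPM + 1), so changes of low genes are understated, with limma 3.58.1 in R 4.3.3 (lmFit, eBayes with a trend, means of 7 groups, 7 residual degrees of freedom). P-values were Benjamini-Hochberg adjusted over all genes tested, with a threshold of 0.05. An exact test of 2 against 2 libraries cannot go below 0.333. Ratios were compared by exact two-sided permutation over 495 regroupings. The scripts were tested on simulated data. Cells with more than 250 genes and under 10% mitochondrial counts were summed per library with Poisson intervals (scipy 1.17.1). No doublet caller was run, barcodes are numbered so shared ones could not be counted, and the matrix of each group was taken as 1 library. All 9 members are named. For each other list and comparison, at most the 3 called genes with the largest change are named, with the 3 genes most like each member in pattern, and a few genes that this rule names are not reported here. Alternatives were the pseudocount, the filter, median-ratio scaling, a replicate block, fits on the compared groups only, and leaving out each library. Deviations of same-numbered libraries did not meet the limit set for pairing, and whether they share a mouse is not given in the sources used here.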

Additional observations from a re-analysis of the deposited data

Results flagged for a closer look

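Among the 8 LN and BM libraries, LN-derived CD44low replicate 2 lay far below the others in 5 enzymes, with a gap to its neighbour, as a share of the whole range, of 0.628 for Psat1, 0.62 for Psph, 0.768 for Shmt1, 0.658 for Shmt2 and 0.733 for Mthfd2. BM-derived CD44low replicate 2 was the lowest for Mthfd1l (0.58) and the highest for Mthfd2l (0.836). The limit for 8 samples is 0.526, and chance passes it in about 1 in 20 groups. LN-derived CD44low replicate 2 also had the lowest sum of cycling genes among these 8 libraries (856 TPM), and its part in these values was not tested.

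The difference between CD44high and CD44low cells was itself tested between organs with limma. In lung it was below that in LN for Mthfd2 (-3.10, adjusted p = 0.00851), Psph (-2.63, adjusted p = 0.000702) and Shmt2 (-1.92, adjusted p = 0.0418), and below that in BM for Psph (-1.95, adjusted p = 0.00481). The call for Shmt2 was lost without any one of 10 libraries, and without LN-derived CD44low replicate 2 its value was -1.14 (adjusted p = 0.0329). Fibroblast markers moved with the lung contrast, since 7 of 8 were lower in lung-derived CD44high than in CD44low cells, and their part was not tested.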

How the results depend on the processing

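The number of enzymes called depended on which libraries were kept. Leaving out 1 library at a time gave 0 to 4 enzymes in LN-derived CD44low against MFP, 0 to 4 in LN-derived CD44high, 0 to 1 in BM-derived CD44low, 0 to 2 in BM-derived CD44high, 2 to 6 in lung-derived CD44low and 3 to 6 in lung-derived CD44high cells. It gave 0 to 3, 0 to 1 and 2 to 7 between CD44high and CD44low cells of LN, BM and lung, and 1 to 3 for the CD44 difference in lung minus that in BM. With LN- and BM-derived CD44low replicate 2 both left out, a choice made after seeing the data, the counts were 1 and 5 in LN-derived CD44low and CD44high and 2 in BM-derived CD44high against MFP, 6 in lung-derived CD44high against MFP, 8 within lung, 8 in lung against LN and BM, and 5 for the CD44 difference in lung minus that in LN and in BM. In those fits 14.9%, 36.5%, 40.3%, 47%, 42.1%, 67.3%, 31% and 25.7% of all genes were called, in the same order. Median-ratio scaling gave 4, 1 and 2 in LN-derived CD44high, BM-derived CD44low and BM-derived CD44high against MFP, 2 for the CD44 difference in lung minus that in BM, 6 within lung (4 as deposited) and 6 in lung against LN and BM (5 as deposited). With that scaling 16.9%, 19.9%, 20.1%, 15%, 31.6% and 60.2% of all genes were called, in the same order. Fits on the compared groups only gave 3 in LN-derived CD44high, 6 in lung-derived CD44high against MFP and 3 for the CD44 difference in lung minus that in BM, where 28.8%, 30.3% and 13.1% of all genes were called. No filter gave 0 in LN-derived CD44high against MFP (10.7% of all genes). The causes of these changes were not tested.

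The replicate block gave 0 in LN-derived CD44high against MFP (Psat1, adjusted p = 0.0604, limma, beside 21.4% of all genes) and changed no other call of an enzyme. Same-numbered libraries deviated together with r of -0.194 to 0.168 over 21 pairs of groups, of which 3 passed 0.1. Permuting within replicate numbers, the block for the ratios, gave exact p = 0.00444 for Shmt2 to Shmt1 and for Mthfd1l to Mthfd1, and 0.862 for Mthfd2 to Mthfd1. Without 1 library at a time the differences were 2.42 to 3.28, -3.05 to -2.42 and -0.71 to 0.44, the last turning sign at 0.44 and 0.40 without lung-derived CD44high replicate 1 or 2. In single cells the sum of the 9 enzymes was 5.85 per 10000 over all barcodes of lung-derived CD44high and 10.5 over cells with more than 500 genes of LN-derived CD44high cells. Over all genes, calls between CD44high and CD44low cells went from 23 to 106 with no filter, 12 at 5 TPM and 0 on the compared groups in BM, and from 58 to 35 with the block and 0 on the compared groups in LN. On the compared groups they went from 2150 to 518 in LN-derived CD44low and from 3557 to 1194 in BM-derived CD44low against MFP. Depth is unknown for TPM, so counting error of low values such as Shmt1 in lung could not be given.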

Other observations

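Genes downstream of the enzymes were described from lists as well. Of 11 genes of the methionine cycle and transsulfuration, 3 were higher and 2 lower in lung than in LN and BM, beside 35.9% and 24% of all genes. In neither direction was this list above the share of all genes. Mtap, which salvages methionine from methylthioadenosine, was lower by -3.09 (SE 0.22, adjusted p = 1.67e-06, limma), and Gnmt, the glycine methyltransferase, by -1.37 (SE 0.21, adjusted p = 0.000357), while Ahcyl1 was higher by 1.40 (SE 0.26, adjusted p = 0.00119). The 2 enzymes that lead from homocysteine to cysteine went opposite ways between CD44high and CD44low cells of the lung, Cbs by 1.67 (SE 0.41, adjusted p = 0.0123) and Cth by -2.82 (SE 0.39, adjusted p = 0.000428). Both were at low levels. Cbs was 4.48 and 1.93 TPM in CD44high against 0.16 and 0.37 TPM in CD44low, and Cth 0.23 and 0.19 TPM against 5.93 and 9.57 TPM. Of the glycine cleavage genes, 2 were tested, and Gcsh was lower in lung than in LN and BM (-0.61, SE 0.18, adjusted p = 0.0155).

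Of 19 genes of the Atf4 and amino acid response, 5 were higher and 4 lower in lung than in LN and BM, beside 35.9% and 24% of all genes, with a median of 0.15 beside 0.20 for all genes. Atf5 was higher by 2.88 (SE 0.32, adjusted p = 3.6e-05, limma) and Ddit3 by 2.24 (SE 0.22, adjusted p = 1.59e-05), while Ddit4 was lower by -2.55 (SE 0.18, adjusted p = 2.03e-06).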
